A study of Mus musculus with 5 samples.

Results

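The genes described here encode the ADAM proteases, the ADAMTS proteases and the ADAMTS-like proteins of the mouse. They were taken from the table of counts as the protein-coding rows whose symbol begins with Adam, Adamts or Adamtsl followed by a number. The rule found 57 genes among 54636 rows, of which 22046 were protein-coding. They comprised 33 ADAM, 19 ADAMTS and 5 ADAMTS-like genes, and the choice used names alone, not levels.

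ADAM proteins are anchored in the cell membrane and carry a metalloprotease and a disintegrin domain. The active members cut the outer part of other membrane proteins close to the cell surface, which releases growth factors, cytokines and adhesion molecules and starts Notch signaling. Many further ADAM genes have lost the catalytic residues or are used in sperm. ADAMTS proteases are secreted, lack the membrane anchor and carry thrombospondin repeats that bind the extracellular matrix. They trim proteoglycans such as versican and aggrecan, remove the N-propeptide of fibrillar procollagens or act on fibrillin microfibrils. ADAMTS-like proteins share the thrombospondin repeats but have no protease domain. Fibroblasts produce much of the matrix that these enzymes process.

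RNA of cultured mouse cancer-associated fibroblasts (CAFs) was sequenced, with 1 library for each of 5 conditions. The first 3 came from patient-derived xenografts (PDX), pieces of human rectal tumor grown in female Nude mice (Crl:NU(Ico)-Foxn1nu, 5 to 6 weeks old), hosts that lack T cells, and the labels give their genotype as WT. They were left untreated, transfected with control siRNA (labelled SiRNA Scramble) or transfected with siRNA against Fn1, the fibronectin gene, and transfected cells were used after 48 h. The other 2 libraries came from tumors of intestinal tumor organoids placed in mice of the SMA-CreERT2; R26mT/mG; myosin IIA fl/fl line. Where Cre is present in this line, the promoter of smooth muscle actin drives it. Both copies of Myh9, which encodes the heavy chain of myosin IIA, are floxed. These hosts were 6 to 8 weeks old when irradiated, received bone marrow and carried the tumors in the interscapular fat pad, while the labels name subcutaneous rectal tumor for all 5 libraries. By the methods, Cre+ and Cre- hosts were injected with tamoxifen while the tumors grew. The organoids expressed activated Notch1 and lacked p53. One library was labelled MyosinIIA KO Cre+ (myosin IIA KO CAFs) and the other MyosinIIA KO Cre- (Cre- control CAFs). The methods name Cre-/- mice as the control hosts. Both cultures were labelled as treated with 2 µM tamoxifen. The methods instead name hydroxytamoxifen at 2 µM, given for 2 days to induce the recombination. All cultures were immortalized with SV40 large T-antigen. The sources used here do not say whether animals were pooled or a culture is 1 clone.

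The libraries held 22961620 to 26596351 counts. Levels are given as CPM, counts per 1000000 after TMM scaling (a correction for library composition), always in the order untreated PDX, control siRNA, Fn1 siRNA, Cre- control and myosin IIA KO. The targeted genes were lower in the libraries labelled for them. Myh9 was 5.69-fold lower in the KO than in the Cre- control library (425 against 2419 CPM), and Fn1 was 3.76-fold lower with Fn1 siRNA than with control siRNA (1282 against 4778 CPM). Fibroblast markers summed to 22975 to 56471 CPM, with 8 to 10 of 10 at 1 CPM or more. The 6 immune markers summed to 1.44 to 2.88 CPM, and Cd68 alone reached 1 CPM. The 6 epithelial markers summed to 0.231 to 0.868 CPM, and 0 reached 1 CPM. Ptprc, which encodes CD45, and the keratin gene Krt8 had no count in any library. Of the 8 adipocyte markers, 3 reached 1 CPM in each PDX library, 7 in Cre- control CAFs and 8 in myosin IIA KO CAFs, and their sum was 407 to 556, 973 and 3491 CPM, respectively. Since each condition had a single library, no difference could be checked against replicates and no p-value is given. All 95% intervals cover counting error only, from the exact Poisson distribution for levels and the exact binomial distribution for ratios. In bulk RNA, fewer cells of a kind and less RNA per cell cannot be told apart.

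The catalytic site of these proteases is a short stretch in which 3 histidines hold a zinc ion next to a glutamate that activates water. The coding sequences of GENCODE M21 (GRCm38, the build of the files) were searched for 36 bases that encode histidine, glutamate, 2 free residues, histidine, 5 free residues, histidine and aspartate. The stretch is shown for the genes on which the comparisons turn, since it sets proteases apart from members without activity. Capitals mark the codons of the 3 histidines and the glutamate, and each sequence reads from the 5′ to the 3′ end of the coding strand.
Adam9: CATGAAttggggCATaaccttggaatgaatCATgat
Adam12: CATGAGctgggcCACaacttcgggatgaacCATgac
Adam17: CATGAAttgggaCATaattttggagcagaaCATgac
Adam8: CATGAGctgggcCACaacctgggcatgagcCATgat
Adamts17: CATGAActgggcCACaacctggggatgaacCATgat
Adamts2: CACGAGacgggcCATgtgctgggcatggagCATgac
Adamts14: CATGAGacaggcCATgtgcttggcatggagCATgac
Adamts5: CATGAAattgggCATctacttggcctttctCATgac
Adamts1: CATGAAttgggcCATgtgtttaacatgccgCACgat
Adamts9: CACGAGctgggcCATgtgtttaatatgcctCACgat
Adamts15: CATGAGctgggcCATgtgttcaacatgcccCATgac

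Of 21575 coding genes, 41 held such a stretch (0.190%), and 38 of these were among the 57 genes. It was found in 19 of 33 ADAM genes, in 19 of 19 ADAMTS genes and in 0 of 5 ADAMTS-like genes. One coding sequence was read for each gene. That of Adam1a was short, at 471 codons against 806 in Adam1b, which held the stretch, so its absence from Adam1a is uncertain. For Adamts19 the position was not read. The eighth codon read glycine in all 19 ADAM sites. Of 18 ADAMTS sites placed, it read glycine in 12, asparagine in 5 (Adamts1, Adamts4, Adamts9, Adamts15 and Adamts20) and serine in Adamts8. These 6 genes are proteoglycanases, and Adamts5, the remaining proteoglycanase, read glycine there. The families also differed in how the site is laid out in the genome. It lay inside 1 exon in 18 of 19 ADAM genes, as in Adam9 (chr8:24990323-24990358, minus strand, exon 11) and Adam12 (chr7:133961155-133961190, minus strand, exon 11), and was split over 2 exons in Adam10. The sites of Adam17 and Adam8 lay at chr12:21336729-21336764 (minus strand, exon 11) and chr7:139987890-139987925 (minus strand, exon 11). In all 18 ADAMTS genes placed, an intron divided it. In Adamts9 its ends lay at chr6:92905282-92908493 and in Adamts15 at chr9:30911252-30911690, both on the minus strand. With the intron included, the site spanned chr16:85799188-85799545 (minus strand, exons 3 and 4) in Adamts1, chr16:85878012-85887826 (minus strand, exons 2 and 3) in Adamts5, chr11:50775403-50776137 (plus strand, exons 7 and 8) in Adamts2 and chr10:61225462-61227123 (minus strand, exons 7 and 8) in Adamts14. That of Adamts17 spanned chr7:66968898-67002476 (plus strand, exons 8 and 9).

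Of the 57 genes, 30 reached 1 CPM in at least 1 library and 23 did so in all 5. Another 12 had counts without reaching 1 CPM, and 15 had no count in any library. The 30 genes comprised 13 ADAM, 13 ADAMTS and 4 ADAMTS-like genes, and 21 of them held the zinc site. The 9 in which it was not found were Adam1a, Adam5, Adam11, Adam22, Adam23 and the ADAMTS-like genes Adamtsl1, Adamtsl3, Adamtsl4 and Adamtsl5. For Adam1a this is uncertain, as given above. ADAM genes known mainly from testis, sperm or epididymis were nearly silent. Of 21 measured, 2 reached 1 CPM and 13 had no count, including Adam2, whose product is part of the sperm protein fertilin. The pair that reached it were Adam5, at most 2.10 CPM, and Adam1a, at most 2.71 CPM, the latter with exons that overlap other genes over 63.7% of their length. Taken as a limit of 3 counts, a count of 0 allows up to 0.108 to 0.135 CPM, depending on the library. The sperm and testis markers summed to 0 to 0.289 CPM, and none reached 1 CPM. Among the silent genes, Adam6a and Adam6b, Adam26a and Adam26b, and Adam20, Adam25 and Adam39 are close copies of each other, and the handling of reads shared by copies was not stated. Adamts13, which cleaves von Willebrand factor in plasma, and Adamts19 had no count. For Adamts19 the table gives a length of 4666 bases and GENCODE M21 exons of 14040 bases, so its count of 0 is uncertain. The 12 genes with traces were Adam1b, Adam3, Adam4, Adam21, Adam28, Adam30, Adam32, Adamts8, Adamts16, Adamts18, Adamts20 and Adamtsl2. Of these, Adamts18 had 1, 0, 0, 15 and 14 counts and Adamts16 had 9, 2, 4, 15 and 19 counts, both more in the transgenic-tumor libraries, though under 1 CPM throughout.

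**Figure D1:**
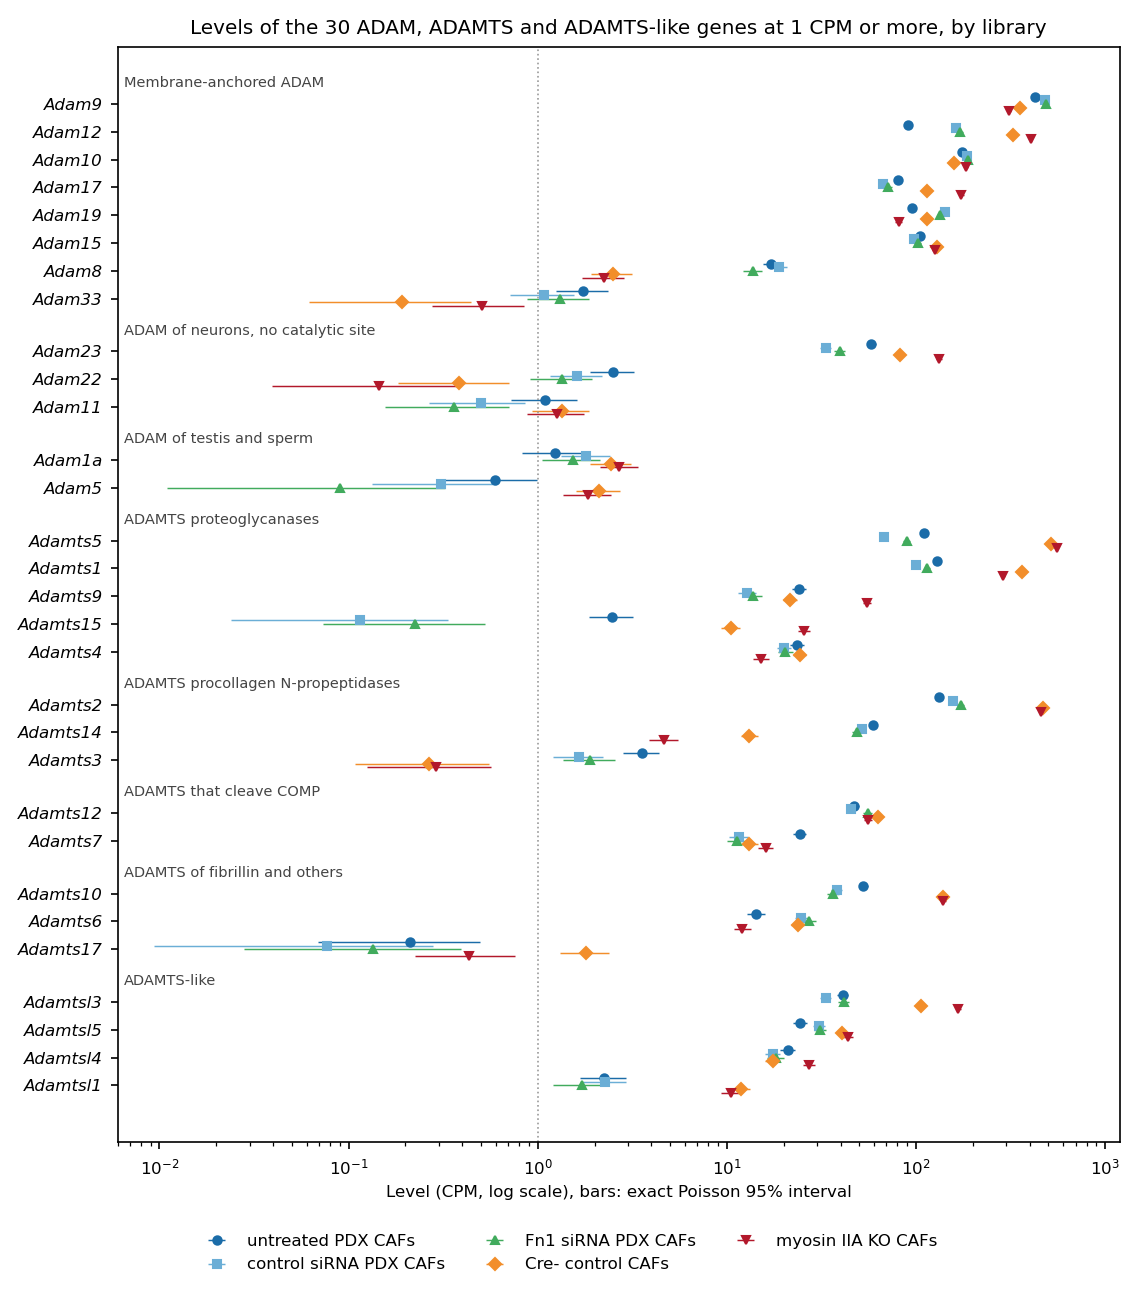
Level of each of the 30 genes that reached 1 CPM, in CPM on a log axis, with 1 symbol for each of the 5 libraries and bars for the exact Poisson 95% interval; the dotted line is 1 CPM. Genes of the membrane-anchored ADAM group lie close together across libraries, apart from Adam12, Adam17, Adam8 and Adam33, while Adamts5, Adamts2 and Adamts1 of the Cre- control and myosin IIA KO libraries lie to the right of the 3 PDX libraries and Adamts14 to the left.

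Together the 57 genes took 0.177% to 0.183% of counts in the PDX libraries, 0.313% in Cre- control CAFs and 0.348% in myosin IIA KO CAFs. To compare genes with each other, levels were divided by the gene length that the table gives (CPM per kb). Adam9 led in every library, at 104, 117, 118, 86.3 and 75.9 CPM per kb. In the PDX libraries Adam10 came next, at 35.8 to 38.3 CPM per kb. Adamts1 was at 18.9 to 24.5 CPM per kb there, and Adam19, at 13.4 to 19.9, was slightly above it with control siRNA. In Cre- control CAFs Adam9 was followed by Adamts1 at 69.1, Adamts2 at 50.5 and Adamts5 at 48.4 CPM per kb. In myosin IIA KO CAFs the same 3 genes followed, at 54.8, 49.2 and 51.9 CPM per kb. Summed over the members, membrane-anchored ADAM genes were at 194 to 222 CPM per kb in all 5 libraries. The proteoglycanases were at 30.3 to 41.6 CPM per kb in the PDX libraries against 125 in Cre- control and 116 in myosin IIA KO CAFs. ADAMTS genes of all groups made up 29.1%, 23.7% and 25.1% of the family sum in the 3 PDX libraries, and 47.6% and 44.0% in Cre- control and myosin IIA KO CAFs. The balance between the families thus differed between PDX and transgenic-tumor libraries, and by little within each kind.

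**Figure D2:**
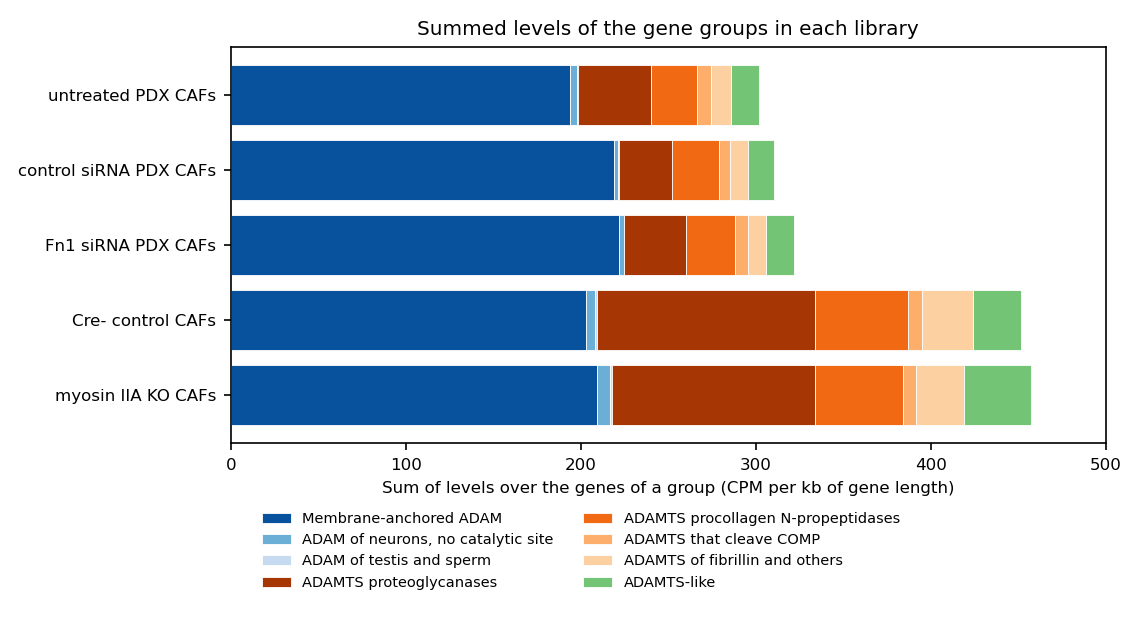
Levels summed over the genes of each group, in CPM per kb of gene length, as stacked bars for the 5 libraries (bars start at 0; 1 library each, no error bars). The membrane-anchored ADAM part is of similar length in all bars, at 194 to 222 CPM per kb, while the proteoglycanase part is 30.3 to 41.6 CPM per kb in the PDX libraries and 116 to 125 in the transgenic-tumor libraries.

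The abundant membrane-anchored ADAM proteases differed in how far they varied. Adam10, the main sheddase of Notch and N-cadherin, was at 176, 186, 188, 159 and 185 CPM, a range of 1.18-fold. Adam9, a widely expressed sheddase, was at 428, 480, 487, 355 and 312 CPM, lower in both transgenic-tumor libraries than in any PDX library. Adam15, which binds integrins and is known from vessel growth in mice, was at 105, 98.3, 103, 130 and 126 CPM. Its exons overlap a gene on the opposite strand over 20.6% of their length (4731419I09Rik, at most 0.940 CPM). Adam17, which releases TNF and several EGF receptor ligands, was at 80.2, 67.3, 71.1, 115 and 174 CPM, so that the KO library stood highest. Adam19, a sheddase of neuregulin, was at 95.5, 142, 134, 114 and 81.3 CPM, with the transfected libraries highest and the KO library lowest.

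Adam12 and Adam8 differed more. Adam12, known from developing muscle and from activated fibroblasts, was at 91.2, 164, 172, 328 and 405 CPM. The untreated PDX library was lowest, the transfected ones were between and the transgenic-tumor ones highest. Adam8, known mainly from leukocytes, was at 17.2, 19.0, 13.7, 2.49 and 2.24 CPM and so was low in both transgenic-tumor libraries. The immune markers summed to 1.44 to 2.88 CPM, all of it Cd68 in the PDX libraries, with Ptprc at no count. Which cells the Adam8 transcripts came from was not tested. Adam33, whose human counterpart has been linked to asthma, reached at most 1.74 CPM, and Adam28 had 1 count in all libraries together. Of the catalytically inactive genes known from neurons, Adam23, which binds integrins and LGI proteins, was at 58.3, 33.5, 39.6, 82.8 and 133 CPM. Adam11 and Adam22 were at or under 2.5 CPM.

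Among the proteoglycanases, Adamts5, a major aggrecanase of cartilage that also cuts versican, was at 111, 67.9, 89.4, 522 and 560 CPM. Its neighbor Adamts1, which lies 53.1 kb away on chromosome 16, was at 130, 100, 115, 366 and 291 CPM. Both genes were lower in all 3 PDX libraries than in either transgenic-tumor library. Adamts4, the other well-known aggrecanase, was at 23.5, 20.2, 20.4, 24.3 and 15.2 CPM and did not follow them. Adamts9, a versican-cleaving protease, was at 24.1, 12.8, 13.7, 21.6 and 55.3 CPM. The KO library was the highest, and Cre- control CAFs lay between the PDX libraries. Adamts15, another versican-cleaving protease, was at 2.46, 0.115, 0.225, 10.5 and 25.7 CPM, from 58, 3, 5, 274 and 711 counts, the widest span of the 30 genes. Its neighbor Adamts8, 20.1 kb away on chromosome 9, had at most 5 counts in any library. Both genes were near 0 in the transfected libraries, and in the transgenic-tumor libraries Adamts15 alone was above 1 CPM. Adamts20 had no count in the PDX libraries and 3 and 4 counts in the others.

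The procollagen N-propeptidases went in opposite directions between the tumor models. Adamts2, the main processing enzyme of type I procollagen, was at 133, 157, 174, 471 and 460 CPM, higher in both transgenic-tumor libraries. Adamts14, which has the same activity, was at 59.4, 51.8, 48.7, 13.2 and 4.67 CPM, and Adamts3, which also activates VEGF-C, was at 3.56, 1.65, 1.89, 0.268 and 0.289 CPM. Both were lower in these libraries, with the smallest value of Adamts14 in the KO library. Per length, Adamts2 was 1.24-fold above Adamts14 in untreated PDX CAFs, 19.8-fold in Cre- control CAFs and 54.8-fold above it in myosin IIA KO CAFs.

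Adamts12 and Adamts7, which cleave cartilage oligomeric matrix protein, did not follow the tumor model. Adamts12 was at 47.1, 45.5, 55.8, 62.9 and 55.8 CPM, and Adamts7 at 24.3, 11.6, 11.4, 13.2 and 16.1 CPM, highest in the untreated PDX library. The gene of their substrate, Comp, was at 0.169 to 1.45 CPM. Of the genes tied to fibrillin microfibrils, Adamts10 was at 52.8, 38.1, 36.6, 139 and 140 CPM, higher in both transgenic-tumor libraries, and Adamts6 at 14.3, 24.7, 27.4, 23.8 and 12.1 CPM, lowest in the KO and the untreated PDX library. For Adamts10 the table gives a length of 5453 bases and GENCODE M21 exons of 8254 bases, so its level per kb is uncertain. Adamts17, whose human counterpart is mutated in a syndrome of short stature and displaced lenses, was at 0.212, 0.0769, 0.135, 1.80 and 0.434 CPM, and only Cre- control CAFs reached 1 CPM.

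Of the ADAMTS-like genes 4 reached 1 CPM, and Adamtsl2 had 4, 2, 7, 3 and 19 counts. Adamtsl3 (punctin-2), a matrix protein, was at 41, 33.5, 41.6, 106 and 168 CPM, and its highest value was in the KO library. Adamtsl1 (punctin) was at 2.24, 2.27, 1.71, 11.9 and 10.5 CPM, higher in both transgenic-tumor libraries. Adamtsl4, which in humans is needed to hold the lens in place, was at 21.0, 17.5, 18.2, 17.6 and 27.3 CPM. Adamtsl5, which binds fibrillin, was at 24.4, 30.8, 31.3, 40.5 and 43.8 CPM.

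The comparison of the KO with the Cre- control library asked how transcript levels differ in CAFs with less myosin IIA, a motor of contraction. Most family members lay within 2-fold. Of 27 genes that reached 1 CPM in either library, 2 were over 2-fold higher, 2 over 2-fold lower and 23 within 2-fold. Of all 13326 genes compared, 3.29% were over 2-fold higher and 1.70% over 2-fold lower. A count of 2 of 27 is 7.41%, which rests on few genes in each direction. The median log2 ratio was -0.037 over the 27 genes and -0.0055 over all genes.

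The higher genes were both proteoglycanases. Adamts9 was 2.56-fold higher, with a log2 ratio of 1.35 (95% interval 1.21 to 1.5). Adamts15 was 2.45-fold higher, with a log2 ratio of 1.29 (1.09 to 1.5). These are the genes whose sites share the asparagine codon with Adamts1 and Adamts4, and those went the other way, at -0.33 and -0.67, while Adamts5 was at 0.10. The exons of Adamts9 overlap opposite-strand genes over 12% of their length, and these had at most 0.108 CPM in the KO library. The lower genes were Adamts14, at -1.5 (-1.81 to -1.21) or 2.83-fold, and Adamts17, at -2.01 (-3.10 to -1.11) or 4.01-fold, the latter from 12 against 47 counts. All 4 intervals lay beyond 2-fold as a whole. Just inside the threshold was Adamts6, 1.96-fold lower at -0.97 (-1.17 to -0.78).

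Smaller differences were larger than counting error for the abundant genes. Adam23 was 1.60-fold higher, Adamtsl3 1.59-fold, Adamtsl4 1.56-fold and Adam17 1.52-fold higher. Adamts4 was 1.59-fold lower and Adam19 1.40-fold lower. Adam12, at 0.30, and Adam10, at 0.22, were slightly higher, and Adam9, at -0.18, slightly lower. Adamts2, at -0.04, Adam15, at -0.04, and Adamts10, at 0.01, were nearly level, and without TMM scaling the first 2 were at 0.04 each. By group, 2 of 5 proteoglycanases were over 2-fold higher, while 1 of 2 procollagen N-propeptidases and 1 of 3 ADAMTS genes of fibrillin microfibrils and other roles were over 2-fold lower. None passed 2-fold among 7 membrane-anchored ADAM genes, 2 ADAM genes of neurons, 2 of testis, 2 ADAMTS genes that cleave COMP and 4 ADAMTS-like genes. The 2 libraries also differed in other respects. Of 8 adipocyte markers, 7 were over 2-fold higher in the KO library and 0 lower, with a median log2 ratio of 2.98. Acta2 and Lum among 10 fibroblast markers were over 2-fold lower. The shares over all genes were 3.29% higher and 1.70% lower. Mitochondrial transcripts took 1.55% against 1.04% of counts. The part of these differences in the protease levels was not tested.

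**Figure D3:**
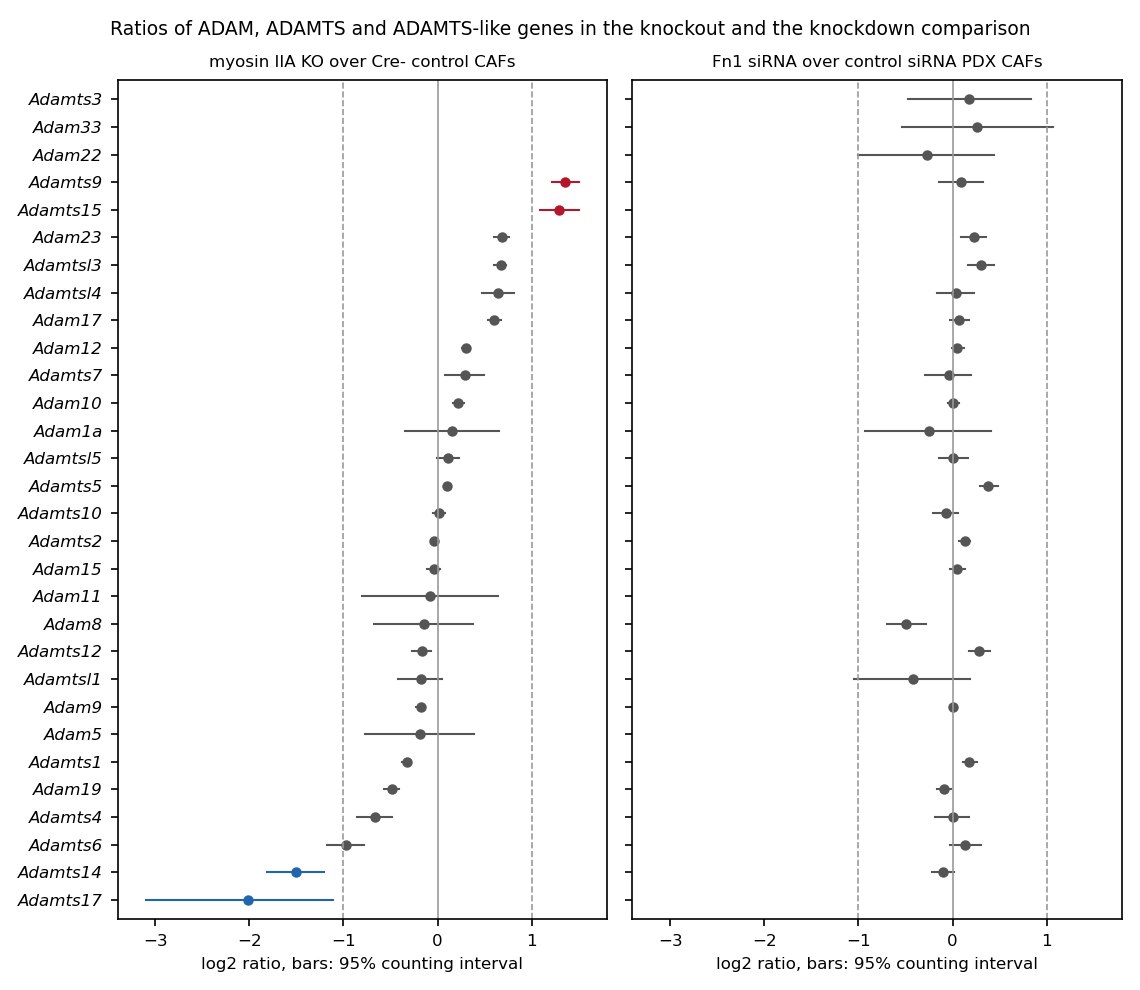
Log2 ratio of each gene that reached 1 CPM in the pair, myosin IIA KO over Cre- control CAFs on the left and Fn1 siRNA over control siRNA PDX CAFs on the right, with 95% counting intervals as bars and dashed lines at 2-fold; red is over 2-fold higher and blue over 2-fold lower. In the knockout comparison Adamts9 and Adamts15 lie above and Adamts14 and Adamts17 below 2-fold, and in the knockdown comparison no point passes it.

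Knockdown of fibronectin addressed the matrix that connects the CAFs. It left the family close to its control levels. Of 26 genes compared, 0 were over 2-fold higher and 0 over 2-fold lower, with the 2-fold change itself rare in this pair, at 0.523% and 0.377% of 13009 genes. The median log2 ratio was 0.042 for the family and -0.0029 for all genes. The ratios ran from -0.49 for Adam8 (95% interval -0.70 to -0.28) to 0.38 for Adamts5 (0.29 to 0.48). Adamtsl3 was at 0.30, Adamts12 at 0.28, Adam23 at 0.23 and Adamts1 at 0.18, each with an interval above 0. Adam9, Adam10, Adam12, Adam15 and Adam17 lay between 0.01 and 0.07. The genes that passed 2-fold in the knockout comparison did not stand out here, with Adamts9 at 0.09 (-0.14 to 0.32) and Adamts14 at -0.10 (-0.22 to 0.02), while Adamts15 and Adamts17 were under 1 CPM in both libraries and were not compared. Whether the knockout and the knockdown differ in their effect was not tested.

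Control siRNA against untreated PDX CAFs served as a measure of how far the family moves without either perturbation, though it includes the transfection. Of 28 genes, 0 were over 2-fold higher and 4 over 2-fold lower, against 2.98% higher and 2.74% lower of 13125 genes. Adamts15 had 3 against 58 counts, a log2 ratio of -4.19 (95% interval -6.73 to -2.79). Adam11, at -1.11, Adamts3, at -1.10, and Adamts7, at -1.07, were the other 3, and their intervals crossed 2-fold. Just short of it were Adamts9, at -0.91, and Adam12, at 0.85. The median log2 ratio was -0.235 over the family and -0.014 over all genes. Of the genes higher in the KO library, Adamts15 thus also passed 2-fold between these control cultures, with few counts in 1 of them, while Adamts9 stayed within it. Of the genes lower in the KO library, Adamts14 was at -0.20 here (-0.31 to -0.09) and Adamts17 was not compared. Fn1 siRNA CAFs shared the low level of Adamts15, at 0.225 CPM.

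More genes passed 2-fold between the tumor models. Between Cre- control and untreated PDX CAFs, 10 of 30 genes were over 2-fold higher and 5 over 2-fold lower, against 10.9% higher and 8.43% lower of 13537 genes. The 10 were Adam5, Adam12, Adamts1, Adamts2, Adamts5, Adamts10, Adamts15, Adamts17, Adamtsl1 and Adamtsl3. The 5 were Adam8, Adam22, Adam33, Adamts3 and Adamts14. The largest log2 ratio among genes above 100 CPM was that of Adamts5, at 2.23 (2.17 to 2.29), followed by Adam12 at 1.85, Adamts2 at 1.83 and Adamts1 at 1.49. Among the lower genes, Adamts14 was at -2.16 (-2.34 to -2.00) and Adam8 at -2.78 (-3.19 to -2.41). The median log2 ratio was 0.461 over the family and -0.030 over all genes.

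Part of this held over all libraries. Genes were counted for which both transgenic-tumor libraries were over 2-fold above, or over 2-fold below, each of the 3 PDX libraries. Of the 30 genes, 8 lay above (26.7%), against 7.05% of 14022 genes, and 5 lay below (16.7%), against 5.16%. The 8 were Adam5, Adamts1, Adamts2, Adamts5, Adamts10, Adamts15, Adamtsl1 and Adamtsl3, and the 5 were Adam8, Adam22, Adam33, Adamts3 and Adamts14. This count uses the libraries of the paired comparison and is not independent of it. The smallest gap of Adamts5, between Cre- control and untreated PDX CAFs, was 2.23 on the log2 scale, and that of Adam8 was 2.45. Near the threshold, Adam33 lay just inside with a gap of 1.06, and Adamts17, at 0.97, and Adam12, at 0.93, lay just outside. The libraries of a tumor model are different treatments, not replicates. Of the 8 genes, 7 encode secreted ADAMTS or ADAMTS-like proteins, Adam5 being the exception. Among the 30 genes, 13 were ADAMTS and 4 ADAMTS-like genes. Adamts3 and Adamts14, which lay below, encode secreted proteases as well. The models also differ in host strain, in the site and the kind of tumor and in the sex of the host. Both transgenic-tumor cultures, and no PDX culture, were labelled with 2 µM tamoxifen. The methods also describe irradiation, bone marrow and tamoxifen injections for their hosts. Xist was at 501 to 633 CPM in the PDX libraries and had no count in the others, where the Y-linked gene Ddx3y was at 75.0 and 83.4 CPM. Against 10.9% of all genes, 7 of 10 fibroblast markers and 6 of 7 adipocyte markers compared were over 2-fold higher in Cre- control than in untreated PDX CAFs. So were 3 of 4 chondrocyte markers (Comp, Matn3 and Sox9) and 2 of 2 skeletal muscle markers (Acta1 and Des). Of 2 endothelial markers 1 was higher and 1 lower, and of 1 immune marker 0 were higher. Which of these the protease levels follow cannot be told apart.

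**Figure D4:**
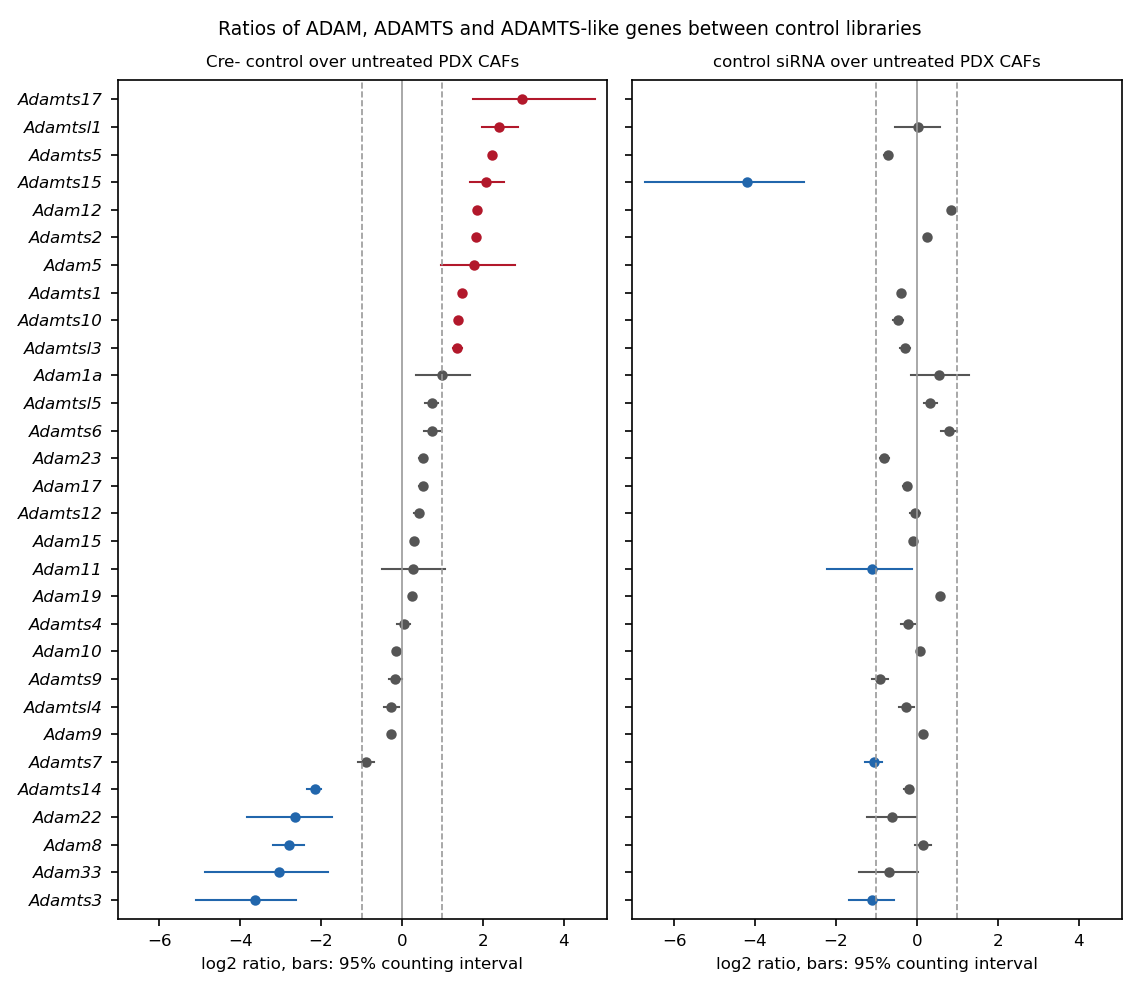
Log2 ratio of each gene that reached 1 CPM in the pair, Cre- control over untreated PDX CAFs on the left and control siRNA over untreated PDX CAFs on the right, with 95% counting intervals as bars and dashed lines at 2-fold; red is over 2-fold higher and blue over 2-fold lower. On the left 10 genes lie above and 5 below 2-fold, and on the right 4 lie below, with Adamts15 farthest at -4.19.

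Inhibitors, maturation factors and substrates were followed as lists. Timp3, the matrix-bound inhibitor with the broadest action on ADAM and ADAMTS proteases, was at 28.2, 140, 153, 575 and 1218 CPM, low in untreated PDX CAFs and highest in the KO library. It was 2.12-fold higher in the KO than in the Cre- control library (log2 ratio 1.08, 95% interval 1.06 to 1.11) and 4.95-fold higher with control siRNA than without transfection. It was the only 1 of 4 inhibitor genes compared that passed 2-fold in the knockout comparison, and none did in the knockdown comparison. Of all genes, 3.29% were over 2-fold higher and 1.70% lower in the knockout pair. In the knockdown pair the shares were 0.523% and 0.377%. Timp2 was at 686 to 919 CPM and Timp1 at 232 to 393 CPM. Reck, a membrane-anchored inhibitor of metalloproteases, was at 15.8, 13.3, 12.9, 46.7 and 48.5 CPM.

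Genes for the maturation and trafficking of these proteases seldom passed 2-fold. Of 13 compared in the knockout pair 0 passed 2-fold, and of 14 in the knockdown pair 1 did, Tspan33, a tetraspanin partner of ADAM10, from 10 against 26 counts. Passing 2-fold was also rare over all genes, at 3.29% higher and 1.70% lower in the knockout pair. In the knockdown pair the shares were 0.523% and 0.377%. Between Cre- control and untreated PDX CAFs, 1 of 13 was over 2-fold higher, the proprotein convertase gene Pcsk6, and 1 over 2-fold lower, Rhbdf2, whose product carries ADAM17 to the cell surface. Of all genes in that pair, 10.9% were higher and 8.43% lower. Furin, which removes the propeptides, was at 159 to 225 CPM. Pofut2, which adds fucose to thrombospondin repeats, was at 152 to 195 CPM, Tspan17, another ADAM10 partner, at 32.0 to 44.2 CPM, and Lrp1, the receptor through which ADAMTS proteases are taken up, at 1069 to 1477 CPM.

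Of 15 genes for substrates of ADAMTS proteases, 0 passed 2-fold in the knockout comparison, with a median log2 ratio of -0.148. Of all genes in that pair, 3.29% were over 2-fold higher and 1.70% lower, with a median of -0.0055. The most abundant of the substrate genes per length, Col1a1, Bgn, Col3a1 and Col1a2, were at -0.38, 0.26, -0.57 and -0.30. In the knockdown comparison, Fn1 itself was the gene of 14 that passed, against 0.523% higher and 0.377% lower of all genes. Between Cre- control and untreated PDX CAFs, 7 of the 15 were over 2-fold higher and 2 over 2-fold lower, with a median log2 ratio of 0.991. Of all genes in that pair, 10.9% were higher and 8.43% lower. With control siRNA 1 of 14 was higher and 1 lower than in untreated PDX CAFs, against 2.98% and 2.74% of all genes. Versican, the substrate of the proteoglycanases, was at 392, 192, 175, 151 and 187 CPM of Vcan, highest in the untreated PDX library. Aggrecan had no count in any library. Of 26 genes for substrates of ADAM proteases, 1 passed 2-fold in the knockout comparison, Tgfa, at 1.48 against 0.536 CPM from 41 and 14 counts, and 0 of 25 in the knockdown comparison. Between Cre- control and untreated PDX CAFs, 7 of 26 were over 2-fold higher and 6 lower, against 10.9% and 8.43% of all genes. With control siRNA 4 of 25 were higher and 0 lower than in untreated PDX CAFs, against 2.98% and 2.74%. Csf1, Axl, Pdgfrb and Sdc4, the most abundant per length, were at 0.06, -0.55, -0.09 and -0.33 in the knockout comparison.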

How the data were processed

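Total RNA of 5 mouse CAF cultures, 1 per condition, was extracted with a DNase step and sequenced on an Illumina HiSeq instrument. The deposited table holds raw gene counts, without normalization, and a length for each gene. The submitters' notes name mm10, while aligner, counter, annotation and strand setting were not given in the sources used here. Overlapping genes and close copies are therefore uncertain. All 57 gene identifiers were found in GENCODE M21, 56 with the same coordinates. The column with the Fn siRNA was taken as the Fn1 siRNA library, the only label it fits.

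From the deposited counts, edgeR 4.0.16 in R 4.3.3 scaled library sizes by TMM, over all 5 libraries for CPM and within each pair for ratios. A count of 0.5, scaled to library size, was added to each, and a gene was compared where either library of a pair reached 1 CPM. Over 2-fold means a log2 ratio beyond 1 or -1, the threshold of fold change in the study's methods, here without a p-value. Python 3.11.15, numpy 2.4.6, pandas 2.3.3, scipy 1.17.1 and matplotlib 3.10.9 were used, and the intervals were tested on simulated data. At these depths 3 counts are 0.108 to 0.135 CPM.

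The family and all lists were chosen with earlier results of these data known. Values in all 5 libraries were given for every member at 5 CPM or more or over 2-fold in the knockout or knockdown comparison, and for other genes named from the lists by level per kb or by passing 2-fold there. Vcan, Comp, Acan, Pcsk6, Rhbdf2, Cd68, Acta2, Lum, Matn3, Sox9, Acta1, Des, Ptprc, Krt8, Xist and Ddx3y were named after their values were seen. Alternatives were scaling by upper quartile, by totals or by DESeq2 1.42.0 size factors, protein-coding genes alone, a filter of 10 CPM or none, 5 counts added, whole intervals beyond 2-fold, a 1.5-fold threshold, untreated PDX CAFs as the control and other thresholds of detection.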

Additional observations from a re-analysis of the deposited data

How the results depend on the processing

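Each condition had 1 library, so leaving out a replicate could not be run, and differences between cultures of a condition remain unmeasured. No paired analysis was possible because each condition had a single library. DESeq2 size factors, library totals, upper-quartile scaling, protein-coding genes alone and 5 counts added moved no count by over 1.5 times. Over these settings, Adamts9, Adamts15, Adamts14 and Adamts17 kept their direction and stayed beyond 2-fold in the knockout comparison.

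Counts did depend on the filter and the threshold. Without a filter, which adds genes of few counts, the knockout comparison gave 6 genes higher and 5 lower, the knockdown comparison 3 and 5, control siRNA against untreated PDX CAFs 3 and 7, and Cre- control against untreated PDX CAFs 9 lower. A filter of 10 CPM, which tests fewer genes, left 1 lower in the knockout comparison, 1 lower with control siRNA, 2 lower in Cre- control CAFs and 2 below in both transgenic-tumor libraries. A threshold of 1.5-fold gave 6 higher and 4 lower in the knockout comparison and 2 higher and 9 lower with control siRNA. With the whole interval beyond 2-fold, 1 gene was lower with control siRNA, Adamts15. Untreated PDX CAFs as the control gave 13 higher and 5 lower with a median log2 ratio of 0.381 for the knockout, and 3 lower with a median of -0.209 for the knockdown. Adamts17 could not be compared between the KO and untreated PDX libraries, being under 1 CPM in both. The alternatives for the transgenic-tumor libraries against all PDX libraries were added after seeing the data.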

Other observations

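Relatives of the family that the naming rule leaves out were looked at after their values were seen. Thsd4, an ADAMTS-like matrix gene, was at 3.77, 4.50, 4.41, 1.72 and 0.470 CPM in the order used above. It was 3.56-fold lower in the KO than in the Cre- control library, with a log2 ratio of -1.83 (95% counting interval -2.89 to -0.96) from 13 against 45 counts. Papln, which encodes papilin, was at 0 to 0.289 CPM, and Adamdec1, a secreted ADAM relative, had no count in any library.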
